A study of Mus musculus with 8 samples.

Results

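The p53 target and apoptosis genes followed here, 6 in number, were measured through round and elongating mouse spermatids labelled wild type (WT) or Carm1 conditional knockout. They are Mdm2, Ccng1, Gadd45b, Sesn2, Bbc3 and Bcl2l1. They were taken by gene symbol, and all 6 were found among the 16349 genes of the table. In round spermatids the death gene Bbc3 was 2.84-fold lower in the KO-labelled libraries and Bcl2l1, a survival gene, was 1.18-fold higher, relative to the deposited scaling. The call of Bcl2l1 was lost with total-count scaling and when any 1 of the 4 round libraries was left out. In elongating spermatids Bbc3 was not called, Mdm2, Ccng1, Sesn2 and Bcl2l1 were lower, and Gadd45b was 2.83-fold higher. Between the stages Mdm2 and Bcl2l1 were lower in elongating spermatids in either genotype.

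Poly A RNA was sequenced in 8 libraries, 2 in each of 4 groups, from spermatids of C57BL/6 mice that were separated by centrifugal elutriation. The groups are WT and KO-labelled (genotype cKO) round spermatids and WT and KO-labelled elongating spermatids. All share the strain, and the labels state that none was treated. Cells of each sample came from 8 testes, so a library is a pool. The sources used here give neither the driver of the deletion nor the age of the mice. Whether both libraries of a group come from different mice is not stated. The p-values therefore cover library-to-library spread, which may be technical.

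The tumour suppressor p53 is a transcription factor that rises after DNA damage and other stress. MDM2 is the ubiquitin ligase that keeps p53 low, and Mdm2 is itself a p53 target, which closes a feedback loop. Ccng1 encodes cyclin G1, which recruits a phosphatase to MDM2. Gadd45b encodes a small stress protein of growth arrest that is also induced through NF-kB, and Sesn2 encodes sestrin 2, a brake on mTORC1 that the stress factor ATF4 also induces. Bbc3 encodes PUMA, a BH3-only protein that frees the pore formers BAX and BAK from their guards. One of those guards is BCL-xL, the main product of Bcl2l1. Gene totals do not separate BCL-xL from the short death-promoting product of the same gene. In the testis p53 and the BCL2 family are known for the removal of damaged germ cells.

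Among the members the Bbc3 start region holds the one match to a p53 response element. It is shown because Bbc3 is the member with the largest knockout difference in round spermatids. RefSeq promoter windows (GRCm38.p6, 250 bases before to 50 after a start) were found for 6 of 6 members, 10 windows in all. They were searched on both strands for the p53 response element, taken as 2 adjoining copies of its decamer with intact cores and at most 3 mismatches. The short site of the cAMP response element that CREM binds, TGACG, was searched on both strands as well, and the 2 motifs did not overlap in any member. The run gives the 250 bases before the first Bbc3 start, 5′ to 3′ on the plus strand, chr7:16309333-16309582, which lies between exons of a longer GENCODE transcript. Capitals mark first the p53 pair (97 to 78 bases before the start, 3 mismatches) and then the short cAMP site (55 to 51 bases before it, read on the other strand).
Bbc3 upstream: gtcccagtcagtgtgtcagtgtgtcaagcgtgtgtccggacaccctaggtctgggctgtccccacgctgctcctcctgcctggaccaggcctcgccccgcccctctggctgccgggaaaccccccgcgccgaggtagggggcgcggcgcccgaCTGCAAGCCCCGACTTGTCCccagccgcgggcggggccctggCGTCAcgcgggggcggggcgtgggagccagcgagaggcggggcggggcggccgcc

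Such a p53 pair was found in 0.57% of all 32851 promoter windows and the short cAMP site in 20.81%. The full cAMP element, TGACGTCA, which holds the short site, stood in 1.79% of windows and in 0 of the members' windows. The Mdm2 window held 1 short cAMP site, 28 to 32 bases after its start, and the windows of Ccng1, Gadd45b, Sesn2 and Bcl2l1 held none of these motifs. A match is a run of letters and says nothing of binding in these cells.

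Recovered reads per library ranged from 17190962 to 23526694. Carm1 itself measured 1649 and 1686 in WT round and 1174 and 1343 in KO-labelled round libraries, but 4308 and 4534 in WT elongating and 8157 and 7993 in KO-labelled elongating libraries. The rise in elongating cells (log2 fold change 0.87, and 0.31 with total-count scaling) goes against the label, so those libraries are called KO-labelled throughout, and each direction given for them rests on that label. Gene totals do not show whether the deleted exons are absent, so these values do not settle the genotype of a library. All levels below are normalised read counts on the authors' scaling. A gene was called at an adjusted p under 0.05 (limma, Benjamini-Hochberg over 15685 tested genes), and fold changes are log2 differences of value + 1 with the standard error (SE). Total-count scaling moved the median fold change over all genes (log2) by -0.087 in the round and by -0.54 in the elongating knockout contrast, and by -1.43 and -1.88 in the stage contrasts of WT and KO-labelled cells, so values on that scaling are given where they matter.

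**Figure D1:**
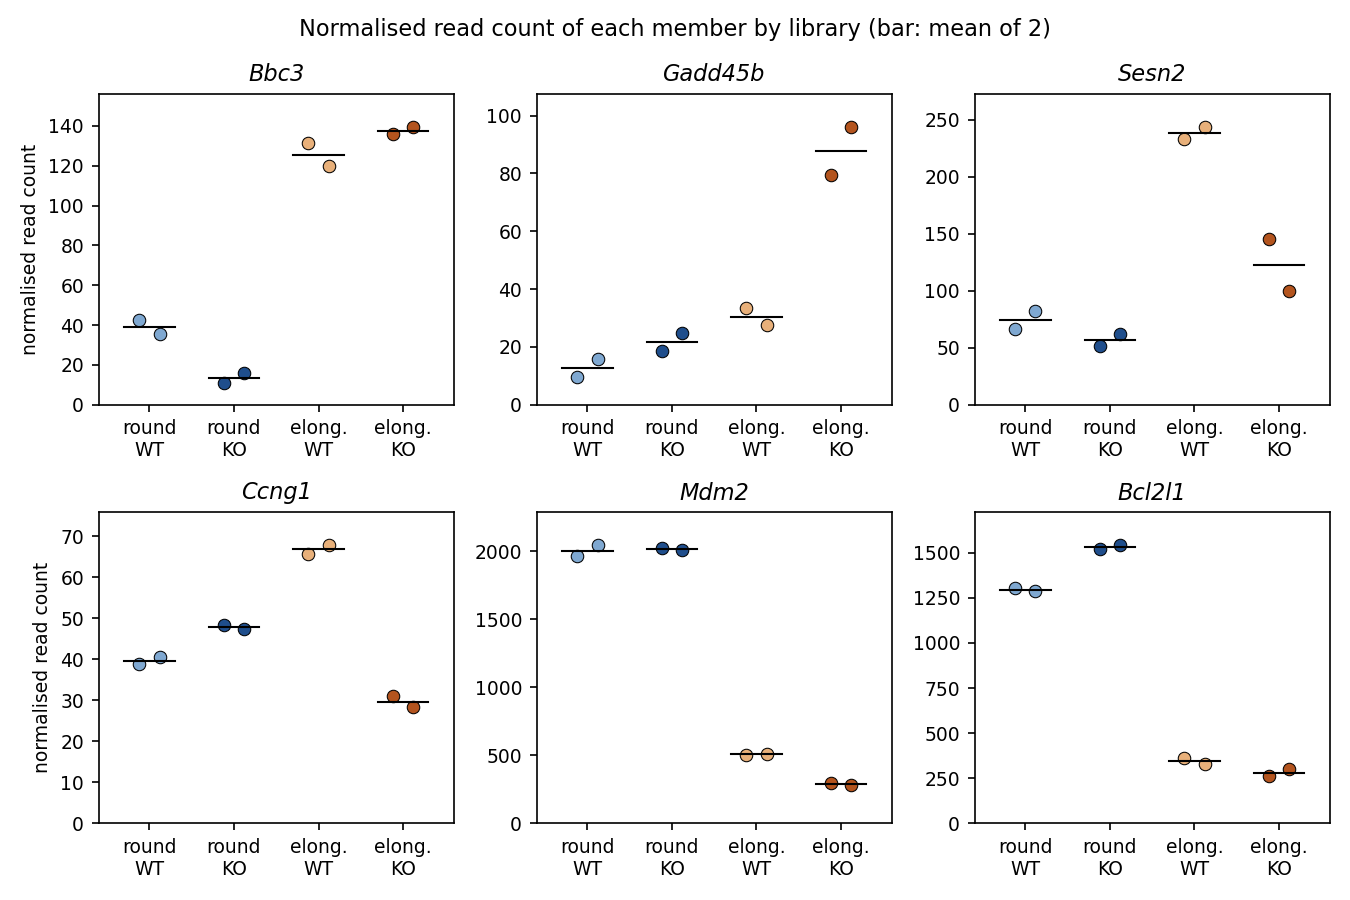
Normalised read count (y axis, from 0) of the 6 members in each library, with 1 panel per gene, 2 points per group and a bar at their mean. Bbc3 sits lowest in the 2 KO-labelled round libraries, at 10.8 and 15.8, and Mdm2 and Bcl2l1 sit far lower in all 4 elongating than in all 4 round libraries.

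In round spermatids 1 of the 6 members was called higher and 1 lower in KO-labelled libraries, where 19.4% and 12.6% of all tested genes were called higher and lower. Libraries of the genotypes did not overlap for 5 of 6 members, as for 70.9% of all genes. In elongating spermatids 1 member was called higher and 4 lower, against a background of 27.3% and 27.7%, and all 6 had no overlap, as did 74.7% of all genes. The members' median log2 fold change was 0.13 in round spermatids (all genes 0.025) and -0.56 in elongating spermatids (all genes -0.072).

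With total-count scaling 0 members were higher and 2 lower in round KO-labelled cells (all genes 14.0% and 19.5%), and 1 was higher and 4 lower in elongating KO-labelled cells (all genes 8.89% and 62.8%). The difference of the knockout effects between the stages was called for 4 of 6 members, 1 upward and 3 downward, where 36.9% of all genes were called, 19.3% upward and 17.5% downward. With total-count scaling it was called for 1 member upward and 4 downward (all genes 5.47% and 45.1%). From round to elongating WT cells all 6 members were called, 4 higher and 2 lower, and none overlapped, where 81.9% of all genes were called, 41.7% higher and 40.2% lower, and 91.7% did not overlap. With total-count scaling 0 were higher and 3 lower (all genes 19.6% and 68.8%). In KO-labelled cells 3 members were higher and 3 lower across the stages, again without overlap, where 84.3% of all genes were called, 42.6% higher and 41.8% lower, and 91.5% did not overlap. With total-count scaling 1 was higher and 4 lower (all genes 16.7% and 72.8%). On the deposited scaling the lower calls thus exceeded the share of all genes in the elongating knockout contrast and in the difference of the effects. The higher calls did so across the stages in WT. With total-count scaling the 4 lower calls in elongating KO-labelled cells lay near the 62.8% of all genes. With only 6 members these counts are not read as a result about the members.

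Mdm2 (chromosome 10, 117688875 to 117710758, minus strand, GRCm38, as for all coordinates below) measured 1964 and 2045 in WT round and 2023 and 2009 in KO-labelled round libraries. The round groups overlapped, and the log2 fold change was 0.01 (95% interval -0.10 to 0.12, adjusted p = 0.93). In elongating cells WT libraries held 505 and 509, and KO-labelled libraries 293 and 283. The 2 elongating groups stood apart with little spread, and Mdm2 fell by 0.82 on the log2 scale (SE 0.05, adjusted p = 4.9e-09), a 1.76-fold difference. With total-count scaling the fall was -1.38. Markers of the stages moved in the same contrast: of 7 round spermatid markers 1 rose and 4 fell (median log2 fold change -0.83; 0 and 7 with total-count scaling), and of 7 elongating spermatid markers 7 rose (median 0.81; 5 and 0 with total-count scaling). Their part in the falls of Mdm2 and Bcl2l1, both of which are higher in round cells, was not tested. The knockout effect differed between the stages by -0.82 (SE 0.07, adjusted p = 5.8e-07).

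Mdm2 also carried the largest stage difference downward among the members. It fell by 1.98 from round to elongating cells in WT and by 2.80 in KO-labelled cells (SE 0.05 in each), 3.95-fold and 6.99-fold. Its partner Mdm4, which encodes a second inhibitor of p53, stayed within a narrower range, from 1064 to 1257 in WT and from 1251 to 1418 among KO-labelled libraries. Per kilobase of exon, the Mdm2 level was 4.59 and 4.74 times that of Mdm4 in WT round and 4.71 and 4.61 times in KO-labelled round libraries. The ratio was 1.33 and 1.39 in WT elongating and 0.601 and 0.619 in KO-labelled elongating libraries, so the order of the 2 genes per kilobase was inverted there. A ratio within a library does not depend on the scaling. It does depend on the exon lengths used, 5083 bases for Mdm2 and 14798 for Mdm4. By normalised read count Mdm4 was already above Mdm2 in WT elongating cells (means 1083 and 507).

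Ccng1 (chromosome 11, 40748552 to 40755311, minus strand) was a low gene, at 38.8 and 40.6 in WT round and 48.3 and 47.3 in KO-labelled round libraries. The KO-labelled round libraries were the higher, but the difference of 0.26 did not pass (SE 0.20, adjusted p = 0.35). In elongating cells WT libraries held 65.7 and 67.8 and KO-labelled libraries 31.0 and 28.3, the latter from only 16 and 15 reads. The WT elongating libraries held the highest and the KO-labelled elongating libraries the lowest values of all 8. The log2 fold change was -1.15 (SE 0.20, adjusted p = 0.00019), and it differed from that in round cells by -1.41 (SE 0.28, adjusted p = 0.0011). Across the stages Ccng1 rose by 0.74 in WT and fell by 0.67 in KO-labelled cells. The rise in WT turned to -0.70 with total-count scaling (adjusted p = 0.0037) and to -0.29 with library totals that leave out the 50 most abundant genes, and the fall in KO-labelled cells did not pass with DESeq2 (adjusted p = 0.067).

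Gadd45b (chromosome 10, 80930073 to 80932204, plus strand) was the lowest member in WT round cells, at 9.54 and 15.7, from 15 and 26 reads. Round KO-labelled libraries held 18.4 and 24.8. The groups did not overlap, but the log2 fold change of 0.75 (SE 0.29, adjusted p = 0.060) did not pass. It passed with edgeR (adjusted p = 0.021), not with DESeq2 (0.13), and leaving out 1 library moved it between 0.42 and 1.09, with a call only without WT round replicate 2 (adjusted p = 0.033) or KO-labelled elongating replicate 1 (0.049).

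For Gadd45b in elongating cells, WT libraries held 33.5 and 27.4, and KO-labelled libraries 79.5 and 96.1. Both KO-labelled libraries were above every other library of the series. The rise was 1.50 on the log2 scale (SE 0.29, adjusted p = 0.00046), 2.83-fold, and it was 0.93 with total-count scaling (adjusted p = 0.0098). The difference between the stages was 0.74 (95% interval -0.13 to 1.62, adjusted p = 0.18), so the effects were not shown to differ. The paralog Gadd45g measured 87.7 and 82.2 in WT elongating and 132 and 147 in KO-labelled elongating libraries and was called higher there (log2 fold change 0.71, adjusted p = 0.016). That call was lost with total-count scaling (0.15, adjusted p = 0.57), without the 50 most abundant genes (0.21, 0.43) and without WT elongating replicate 2 (adjusted p = 0.074) or KO-labelled elongating replicate 2 (0.072). Gadd45a stayed between 3.77 and 13.0 in all 8 libraries and was called in neither knockout contrast.

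Genes that share other inducers with Gadd45b were higher in the same libraries. Of 16 immediate early and NF-kB response genes, 13 rose and 1 fell in KO-labelled round cells (all genes 19.4% and 12.6%). In KO-labelled elongating cells 13 rose and 0 fell (all genes 27.3% and 27.7%). With total-count scaling these counts were 13 and 1, then 7 and 2, so fewer rises were called in elongating cells. The median log2 fold changes were 0.83 and 0.89 (all genes 0.025 and -0.072). Fosb, a subunit of the AP-1 transcription factor, showed the largest rise in elongating cells, from 300.4 and 362 to 2009 and 1976 (log2 fold change 2.59). Atf3 had 0 reads in WT round and 58 in KO-labelled round libraries, 18.6-fold higher against a floor of 3 counts over the group (exact 95% interval from 14.7, counting error only). The 1 fall in round cells was that of Dusp1, a phosphatase gene, from 131 and 146 to 85.2 and 85.6. Immediate early genes are also switched on while tissue is taken apart, and the part of cell handling in the level of Gadd45b was not tested.

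Sesn2 (chromosome 4, 132492032 to 132510501, minus strand) measured 66.8 and 82.3 in WT round and 51.5 and 62.0 in KO-labelled round libraries. The KO-labelled libraries were lower without overlap, but by little, and the log2 fold change of -0.39 (SE 0.18, adjusted p = 0.12) did not pass. It passed with total-count scaling (-0.48, adjusted p = 0.047) and with edgeR (adjusted p = 0.028), and when KO-labelled elongating replicate 1 (0.047) or 2 (0.043) was left out. Elongating cells held 233 and 244 if WT and 145 and 99.9 if KO-labelled. The KO-labelled libraries were both lower and also further apart, and Sesn2 fell by 0.98 (SE 0.18, adjusted p = 0.00031). Leaving out 1 library moved that value between -1.25 (without KO-labelled elongating replicate 1) and -0.71 (without replicate 2), and the call held in all 8 such fits.

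The knockout effects on Sesn2 differed between the stages by -0.59 (SE 0.25, adjusted p = 0.085), which did not pass, but they did with total-count scaling (-1.05, adjusted p = 0.0024), with edgeR (-0.60, 0.022) and without KO-labelled elongating replicate 1 (-0.86, 0.0074). From round to elongating cells Sesn2 rose by 1.67 in WT and by 1.08 in KO-labelled cells. With total-count scaling these were 0.22 (adjusted p = 0.25) and -0.84 (0.00033), so the second direction depends on the scaling. The paralog Sesn1 was at 60.5 and 62.4 in WT round and 33.7 and 41.7 in KO-labelled round libraries, and at 129 and 172 against 116 and 71.6 in elongating cells. It was called lower at either stage, by -0.70 in each (adjusted p = 0.026 and 0.016). The round call ended without WT round replicate 1 (adjusted p = 0.10), WT round replicate 2 (0.12) or KO-labelled round replicate 1 (0.19), and the elongating call without WT elongating replicate 2 (0.16) or KO-labelled elongating replicate 2 (0.17). Sesn3 lay between 116 and 168 in all libraries and was called in neither contrast.

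Genes that depend on ATF4, an inducer of Sesn2, gave together with Atf4 itself 0 rises and 3 falls of 11 in round cells (all genes 19.4% and 12.6%). They gave 4 rises and 3 falls in KO-labelled elongating cells (all genes 27.3% and 27.7%). With total-count scaling these counts were 0 and 4, then 1 and 6, so the balance turned in elongating cells. The shares of all genes on that scaling were 14.0% and 19.5%, then 8.89% and 62.8%. The 3 calls in round cells became 1 without WT round replicate 2 and 5 without WT elongating replicate 2, and the 7 in elongating cells became 4 without WT elongating replicate 1 or 2. Atf4 itself measured 161 and 158 in WT round and 130 and 121 in KO-labelled round libraries and fell by 0.34 (adjusted p = 0.023). That call was lost with DESeq2 (adjusted p = 0.062) and without WT round replicate 1 (0.12), WT round replicate 2 (0.093) or KO-labelled round replicate 2 (0.15). Slc7a11, which encodes the cystine transporter, showed the largest fall among the called genes at each stage, by 1.42 and by 0.72. The elongating call of Slc7a11 was lost without WT elongating replicate 1 (adjusted p = 0.077). Ppp1r15a, whose product restores translation after stress, went the other way in elongating cells, from 92.8 and 86.5 to 270 and 315 (log2 fold change 1.69, adjusted p = 8.6e-07).

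Bbc3 (chromosome 7, 16308393 to 16318205, plus strand) measured 42.6 and 35.7 in WT round and 10.8 and 15.8 in KO-labelled round libraries, from 67 and 59 reads against 17 and 28. Every KO-labelled round value lay well below every WT value, so the groups stood apart. The log2 fold change was -1.51 (SE 0.21, adjusted p = 6.4e-05), and 1.2% of all tested genes had a lower one. Total-count scaling gave -1.63, edgeR an adjusted p of 1.9e-07 and DESeq2 one of 6.2e-06. Leaving out 1 library moved the fall between -1.76 and -1.25 and ended the call in none of the 8 fits.

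For Bbc3 in elongating cells, WT libraries held 131 and 120, and KO-labelled libraries 136 and 139.5. These values lay close together, and the log2 fold change of 0.13 (95% interval -0.31 to 0.58, adjusted p = 0.61) did not pass. Total-count scaling turned it to -0.42 (adjusted p = 0.082). The knockout effect differed between the stages by 1.64 (SE 0.29, adjusted p = 0.00044), and by 1.20 with total-count scaling (adjusted p = 0.0035). Bbc3 rose from round to elongating cells by 1.66 in WT and by 3.30 in KO-labelled cells. With total-count scaling the WT rise was 0.22 (adjusted p = 0.34) and did not pass, while the KO-labelled rise was 1.42 (adjusted p = 1.0e-05).

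Bcl2l1 (chromosome 2, 152780668 to 152831728, minus strand) measured 1306 and 1286 in WT round and 1520 and 1542 in KO-labelled round libraries. The KO-labelled libraries were higher by a small and even step, by 0.24 on the log2 scale (SE 0.07, adjusted p = 0.022). The call was lost with total-count scaling (0.15, adjusted p = 0.15), without the 50 most abundant genes (0.15, 0.15), and without WT round replicate 1 (0.098), WT round replicate 2 (0.13), KO-labelled round replicate 1 (0.086) or KO-labelled round replicate 2 (0.12). Elongating WT libraries held 362 and 329, and KO-labelled ones 259.9 and 302. The groups did not overlap, and Bcl2l1 fell by 0.30 (SE 0.07, adjusted p = 0.0031), or by 0.86 with total-count scaling, in the contrast where 4 of 7 round spermatid markers fell. The stage difference of the effects was -0.54 (SE 0.10, adjusted p = 0.00080). From round to elongating cells it fell by 1.91 in WT and by 2.45 in KO-labelled cells, 3.75-fold and 5.45-fold.

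Set against each other per kilobase of exon within a library, Bbc3 (PUMA) lay far below the Bcl2l1 gene total in round cells and came close to it in elongating cells. The level of Bbc3 was 0.0705 and 0.0599 of that of Bcl2l1 in WT round and 0.0154 and 0.0221 in KO-labelled round libraries. In elongating cells the ratio was 0.784 and 0.786 for WT and 1.13 and 0.999 for KO-labelled libraries. On this measure, which depends on the exon lengths used, Bbc3 stood above Bcl2l1 in 1 of the 4 elongating libraries. The KO-labelled libraries held the lowest ratios among round and the highest among elongating libraries. Mean levels per kilobase in WT round cells were 394 for Mdm2, 283 for Bcl2l1, 21.5 for Sesn2, 18.4 for Bbc3, 11.3 for Ccng1 and 7.96 for Gadd45b. The libraries of Sesn2 and Bbc3 overlapped in that order (19.2 to 23.7 and 16.8 to 20.1), while those of the other neighbours did not. In KO-labelled elongating cells the means were 64.8 for Bbc3, 61.2 for Bcl2l1, 56.6 for Mdm2, 55.3 for Gadd45b, 35.3 for Sesn2 and 8.44 for Ccng1, and the first 4 of these overlapped with a neighbour.

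**Figure D2:**
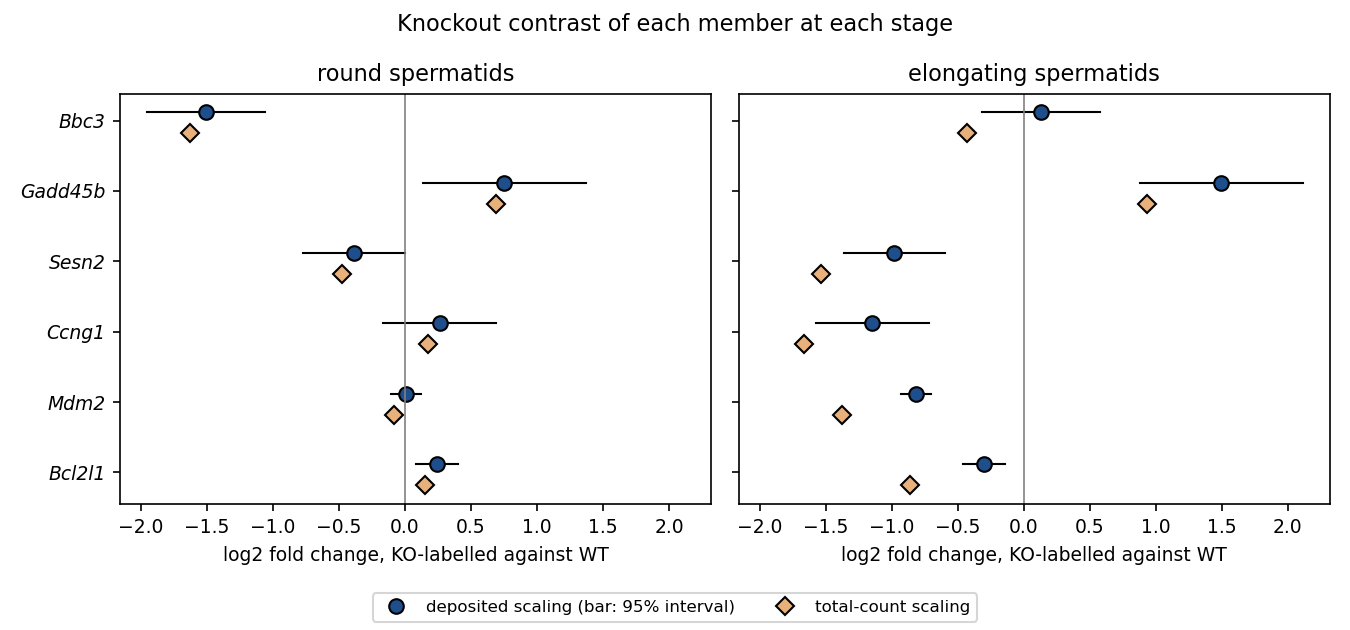
Log2 fold change of KO-labelled against WT (x axis) for each member in round (left) and elongating (right) spermatids. Circles with 95% intervals use the deposited scaling and diamonds total-count scaling. Bbc3 stands at -1.51 in round and 0.13 in elongating cells, and every elongating diamond lies left of its circle.

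Of 19 tested regulators and cofactors, 2 rose and 3 fell in round cells (all genes 19.4% and 12.6%). In KO-labelled elongating cells 4 rose and 6 fell (all genes 27.3% and 27.7%). Total-count scaling gave 1 and 6, then 0 and 19 (all genes 14.0% and 19.5%, then 8.89% and 62.8%). Leaving out 1 library gave 2 to 7 calls in round cells, with 2 without WT round replicate 1 and 3 without WT round replicate 2 or KO-labelled round replicate 2, and 6 to 10 in elongating cells, with 6 without WT elongating replicate 2. Trp53, the gene of p53 itself, measured 41.4 and 52.7 in WT round, 52.1 and 56.9 in KO-labelled round, 103 and 83.6 in WT elongating and 73.7 and 64.1 in KO-labelled elongating libraries. It was called in neither knockout contrast (adjusted p = 0.43 and 0.071). Among the regulators that limma called in round cells, the coactivator gene Ep300 fell the most, by 0.44, and Trp53bp1, a damage-response gene, rose the most, by 0.28. The Trp53bp1 call was lost without WT round replicate 1. In elongating cells Ppm1d, which encodes a phosphatase that ends the p53 response, rose by 0.38 and Mdm4 by 0.34, and total-count scaling turned these to -0.18 and -0.22. Trp63 had the largest fitted fall there but only 12 reads in WT against 3 in KO-labelled libraries, a ratio of 2.85 (exact 95% interval 0.769 to 15.7). In round cells Trp63 measured 29.9 and 29.1 in WT against 11.5 and 8.45 in KO-labelled libraries, where limma did not call it (adjusted p = 0.11) and edgeR (1.0e-05) and DESeq2 (0.014) did. Prmt1, an arginine methyltransferase gene chosen after its values were seen, measured 119 and 114 in WT elongating against 67.9 and 54.7 in KO-labelled elongating libraries and fell by 0.92 (adjusted p = 0.00022).

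Other p53 targets did not move as one group. Of 10 tested targets of cell cycle and arrest, 3 rose and 0 fell in round cells (all genes 19.4% and 12.6%). In KO-labelled elongating cells 4 rose and 0 fell (all genes 27.3% and 27.7%). Total-count scaling gave 3 and 0, then 3 and 3 (all genes 14.0% and 19.5%, then 8.89% and 62.8%). Cdkn1a, which encodes the cell cycle inhibitor p21, measured 17.8 and 14.5 in WT round and 24.2 and 27.6 in KO-labelled round libraries and rose by 0.65 (adjusted p = 0.026). This call was lost with DESeq2 (adjusted p = 0.087) and without WT round replicate 2 (0.17), KO-labelled round replicate 1 (0.055) or KO-labelled round replicate 2 (0.15). Elongating WT libraries held 133 and 159 for Cdkn1a, and KO-labelled ones 132 and 173, with no call. Btg2, an antiproliferative gene that also responds early to stimuli, rose at each stage, from 15.3 and 15.7 to 38.8 and 42.8 and from 300.4 and 289.8 to 632 and 613. Ptprv, a phosphatase gene, showed the largest rise in elongating cells, by 1.68. Cdc25c, also on this list, went from 309 and 286 to 451 and 424 in round cells. In elongating cells it went from 232 and 257 to 465.5 and 486. The list was not sorted by whether p53 raises or lowers a gene, so its counts of rises do not measure p53 activity. Ccng2, the paralog of Ccng1, was at 66.2 and 67.2 against 60.4 and 64.8 in round and at 29.6 and 30.3 against 33.0 and 26.4 in elongating cells and was not called.

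Of the 11 tested p53 targets of apoptosis, limma called 0 in KO-labelled round cells, with 0 at an unadjusted p under 0.05, 1 called by edgeR and 0 by DESeq2. Bbc3 thus had no companion among them in limma. In elongating cells 5 fell and 0 rose, where 27.7% of all genes fell and 27.3% rose. Total-count scaling gave 7 falls and 0 rises, where 62.8% of all genes fell and 8.89% rose. On that scaling the falls thus lie near the share of all genes. The death receptor gene Tnfrsf10b showed the largest fall, from 131 and 98.1 to 38.8 and 56.6 (log2 fold change -1.26, adjusted p = 0.00011). Of the 16 targets of repair and metabolism, 1 rose and 4 fell in round cells (all genes 19.4% and 12.6%). In elongating cells 1 rose and 5 fell (all genes 27.3% and 27.7%). Total-count scaling gave 1 and 4, then 0 and 11 (all genes 14.0% and 19.5%, then 8.89% and 62.8%). The 5 calls in round cells became 2 without WT round replicate 1 or KO-labelled round replicate 1. Ercc5, an excision repair nuclease gene, showed the largest fall in elongating cells, by 1.17, and Xpc, a damage sensor gene, the largest rise, by 0.66, which total-count scaling reduced to 0.10 (adjusted p = 0.56). Gls2, a glutaminase gene, had the largest fall in round cells at -1.51, and that call was lost with DESeq2 (adjusted p = 0.051) and without WT round replicate 1 (0.15), WT round replicate 2 (0.058) or KO-labelled round replicate 1 (0.24). Ephx1, an epoxide hydrolase gene, had the largest rise there at values of 0 and 2.42 against 4.45 and 3.94, and neither edgeR (adjusted p = 0.059) nor DESeq2 (0.12) called it. Without WT round replicate 1 the Ephx1 call was lost too (adjusted p = 0.33), as it was without KO-labelled round replicate 1 (0.12) or 2 (0.092).

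**Figure D3:**
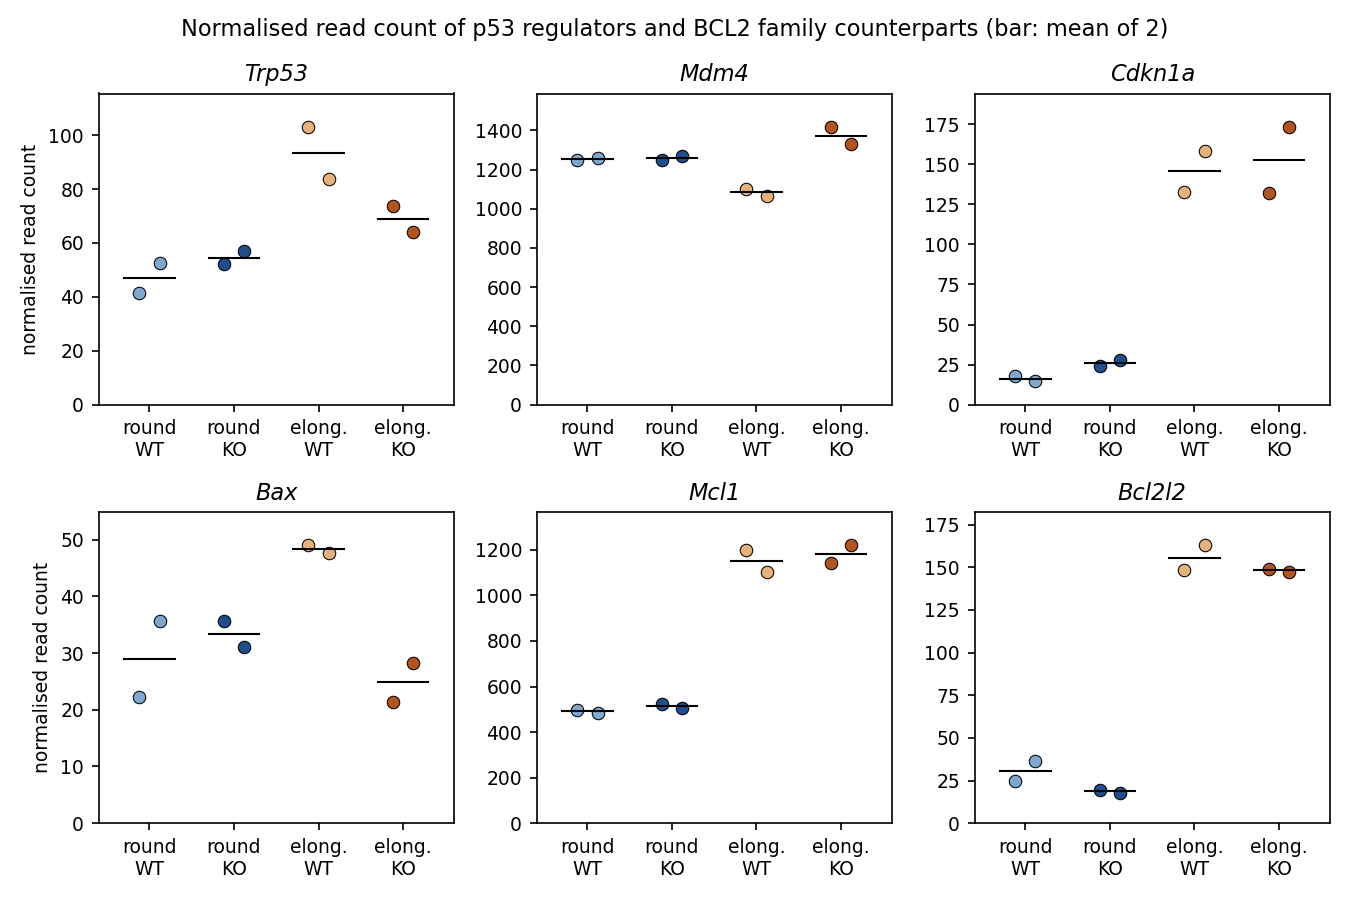
Normalised read count (y axis, from 0) of 3 p53 pathway genes and 3 BCL2 family genes in each library, with 2 points per group and a bar at their mean. Cdkn1a, Mcl1 and Bcl2l2 are higher in all 4 elongating than in all 4 round libraries, and Bax is lower in KO-labelled elongating (21.3 and 28.3) than in WT elongating libraries (49.0 and 47.6).

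Within the BCL2 family the other survival genes ran opposite to Bcl2l1 across the stages on the deposited scaling. All 4 tested, Bcl2, Mcl1, Bcl2l2 and Bcl2a1b, were called higher in elongating than in round cells in either genotype. Over all genes 41.7% in WT and 42.6% in KO-labelled cells were called higher. In round libraries Bcl2a1b had only 1 to 3 reads and Bcl2 only 0 to 4, so both were near the floor there. With total-count scaling 3 of the 4 survival genes were higher and 1 lower in WT, and 2 and 1 in KO-labelled cells. The shares of all genes on that scaling were 19.6% and 68.8%, then 16.7% and 72.8%. Mcl1 turned to -0.24 and -0.74 on it, and Bcl2a1b lost its call in KO-labelled cells (0.58, adjusted p = 0.33). Mcl1, another guard that binds PUMA, measured 499 and 484 in WT round, 521 and 507 in KO-labelled round, 1201 and 1102 in WT elongating and 1142 and 1220 in KO-labelled elongating libraries and was called in neither knockout contrast. Bcl2l2, which encodes BCL-w, a survival protein that spermatogenesis requires, measured 24.8 and 36.3 in WT round and 19.7 and 17.5 in KO-labelled round libraries. It fell by 0.67 there (adjusted p = 0.020), but not without WT round replicate 2 (adjusted p = 0.24) or KO-labelled round replicate 2 (0.12), and its exons overlap those of a readthrough gene on the same strand. In elongating cells Bcl2l2 lay between 147 and 163. Of these 4 survival genes limma called 0 in the elongating knockout contrast, with 0 at an unadjusted p under 0.05 and 0 by edgeR and by DESeq2. Bcl2 had 4 reads in WT round and 1 in KO-labelled round libraries, and 17.3 to 24.5 in WT elongating and 11.6 to 22.6 in KO-labelled elongating libraries.

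Of the 3 pore-forming effectors, limma called 0 in round cells, with 1 at an unadjusted p under 0.05, 1 by edgeR and 0 by DESeq2. In elongating cells Bax fell, from 49.0 and 47.6 to 21.3 and 28.3 (log2 fold change -0.95, SE 0.27, adjusted p = 0.0084), a call that was lost with DESeq2 (adjusted p = 0.062). Exons of Bax share 192 bases with those of Gm45808, a protein-coding gene on the same strand. Bok was lower there too, at 32.2 and 38.9 in WT against 15.5 and 17.0 in KO-labelled libraries. Those values came from 25 and 27 against 8 and 9 reads, and limma did not call Bok. edgeR called 2 of the 3 effectors in elongating cells and DESeq2 called 0. Without WT round replicate 1 or 2 the count of effectors called in elongating cells was 2. Bak1 lay between 121 and 179 in all libraries and was called in neither contrast, and its exons overlap those of Ggnbp1 on the other strand. Of 8 BH3-only genes 1 rose and 1 fell in round cells (all genes 19.4% and 12.6%). In elongating cells 0 rose and 3 fell (all genes 27.3% and 27.7%). Total-count scaling gave 1 and 1, then 0 and 7 (all genes 14.0% and 19.5%, then 8.89% and 62.8%). The 3 calls in elongating cells became 0 without WT elongating replicate 2 or KO-labelled elongating replicate 1, 1 without WT elongating replicate 1 and 5 without KO-labelled elongating replicate 2. The rise was that of Bad, by 0.38. The fall in round cells was that of Bik, with 12 WT reads against 1 in KO-labelled libraries, a ratio of 12.5 (exact 95% interval 1.84 to 533). DESeq2 did not call Bik (adjusted p = 0.057). Bmf showed the largest fall in elongating cells, from 37.4 and 40.4 to 11.6 and 22.6. The Bmf call was lost with DESeq2 (adjusted p = 0.069) and without WT elongating replicate 1 (0.058), WT elongating replicate 2 (0.081) or KO-labelled elongating replicate 1 (0.13). Pmaip1, which encodes the BH3-only protein NOXA, stayed between 5.77 and 27.2 in all libraries, and Bcl2l11, which encodes BIM, was at 49.0 and 46.0 against 46.4 and 39.4 in round and at 229 and 232 against 244 and 245 in elongating cells. Neither was called.

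The list of caspases and apoptosome genes also holds inhibitor genes, namely Xiap, Birc2, Birc3, Birc5, Birc6 and Dffa. Its genes gave 0 rises and 2 falls of 19 in round cells (all genes 19.4% and 12.6%). They gave 0 rises and 7 falls in KO-labelled elongating cells (all genes 27.3% and 27.7%). With total-count scaling these counts were 0 and 2, then 0 and 13 (all genes 14.0% and 19.5%, then 8.89% and 62.8%). Among the inhibitors, Birc2 measured 205 and 169 in WT elongating against 112.5 and 99.9 in KO-labelled elongating libraries. Birc6 measured 246 and 257 against 145.5 and 156.5 there, and Dffa 38.7 and 30.3 against 19.4 and 17.0. Xiap, Birc3 and Birc5 overlapped between the genotypes, so the list does not separate death genes from their inhibitors. The 2 calls in round cells became 1 without WT round replicate 1, WT round replicate 2 or KO-labelled round replicate 2, and the 7 in elongating cells became 4 without KO-labelled elongating replicate 2. Cycs, the somatic cytochrome c gene, showed the largest fall in round cells, from 147 and 165 to 87.1 and 80.0 (log2 fold change -0.89, adjusted p = 5.1e-05), and it also fell in elongating cells by 0.85. Casp8, the initiator caspase gene of the death receptors, showed the largest fall in elongating cells, from 36.1 and 44.7 to 19.4 and 17.0. That call was lost with DESeq2 (adjusted p = 0.073) and without WT elongating replicate 2 (0.12) or KO-labelled elongating replicate 2 (0.061).

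**Figure D4:**
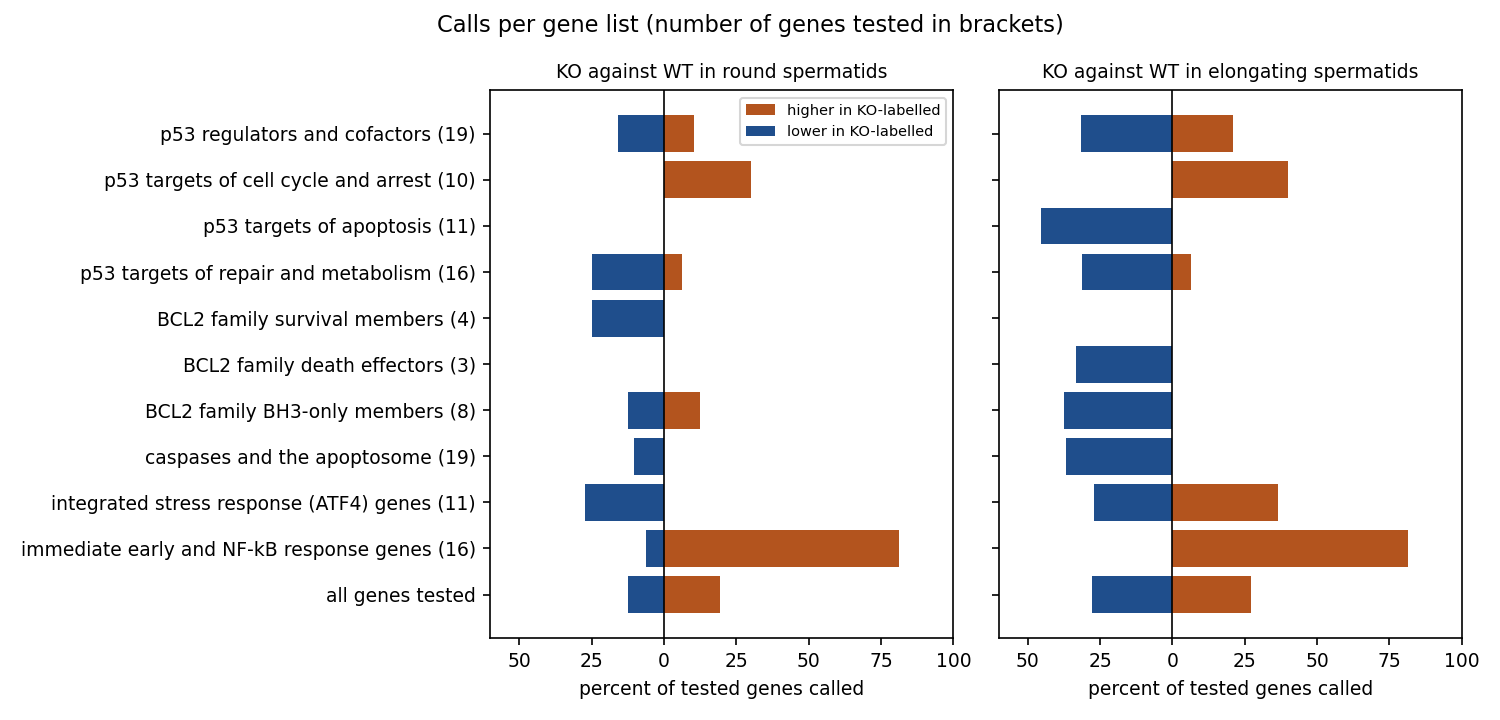
Percent of the tested genes of each list called higher (right of 0) or lower (left of 0) in KO-labelled against WT libraries, in round (left panel) and elongating (right panel) spermatids, with all tested genes as the bottom bar. Targets of apoptosis have no bar in round cells, where 0 of 11 were called, and immediate early genes have the longest bars to the right.

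By their profile over the 8 libraries the members did not form 1 group. Likeness was taken as the root mean square difference of log2(value + 1) after centring each gene on its mean. Mdm2 and Bcl2l1 were the closest pair, at 0.24, and Bbc3 and Mdm2 the most distant, at 2.52. Of all tested genes the most like Bbc3 were Lactb (0.18) and Smim1 (0.25), against a median of 1.42 over all genes. Lactb averaged 22.3, 7.69, 68.7 and 66.0 in WT round, KO-labelled round, WT elongating and KO-labelled elongating cells. Tex21 (0.03) and Suclg1 (0.05) were most like Mdm2, and Hdgfl1 (0.06) and Kif4 (0.06) most like Bcl2l1. The closest genes were 1700101O22Rik (0.10) and Strn3 (0.12) for Ccng1, Tmem86a (0.15) and Nlrx1 (0.16) for Sesn2, and Farp1 and Slc13a4 (0.20 each) for Gadd45b.

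Other cell types left transcripts in these fractions, and their levels moved with the groups. Fewer cells of a type and less RNA per cell cannot be told apart in such samples. The summed level of the 10 macrophage and leukocyte markers was 123 to 153 in WT round, 186 to 193 in KO-labelled round, 11160 to 11200 in WT elongating and 4762 to 4831 in KO-labelled elongating libraries. In round cells 5 of the 10 rose and 0 fell, and in elongating cells 0 rose and 10 fell. The 11 measured Sertoli markers summed to 546 to 553, 338 to 341, 8249 to 8264 and 5674 to 5741 in the same order, with 0 rises at either stage and 7 falls in round and 8 in elongating cells. The Sertoli receptor gene Fshr had 0 reads in KO-labelled round libraries, and of the other markers of these 2 lists none was at 0 in both libraries of a group. Markers of peritubular, smooth muscle and vascular cells summed to 358 to 386, 499 to 512, 2849 to 2940 and 4786 to 4833. Of these 10 markers 4 rose and 1 fell in round cells, and 5 rose and 2 fell in elongating cells. Total-count scaling gave 4 and 1, then 4 and 5. In elongating cells Tagln had the largest called rise, by 1.62, and Pecam1 the largest called fall, by 1.85. The 10 spermatocyte markers summed to 6352 to 6540, 5917 to 5989, 2128 to 2237 and 1363 to 1448.

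The 7 markers of round spermatids summed to 16370 to 16440 in WT round, 18510 to 18520 in KO-labelled round, 14430 to 14750 in WT elongating and 14500 to 14690 in KO-labelled elongating libraries. Tssk1 held that sum up, with means of 4297, 4798, 9640 and 11350 in these groups on the deposited scaling. The other 6 were called lower in elongating than in round cells in either genotype. The median log2 fold change of the 7 was -1.20 in WT and -2.11 in KO-labelled cells. The 7 markers of elongating spermatids summed to 145500 to 150300, 157700 to 168400, 2950000 to 2973000 and 5092000 to 5230000 in the same order, so they were present in round fractions and much higher in elongating ones. Bbc3, Gadd45b, Sesn2, Cdkn1a, Bcl2, Bcl2a1b, Bcl2l2 and Mcl1 were higher in elongating fractions on the deposited scaling. They were thus higher where somatic markers were higher too. Mdm2 and Bcl2l1 were lower in elongating fractions, where the spermatocyte markers were lower too, as were 6 of the 7 round spermatid markers in either genotype. The part of other cell types in the levels of these genes was not tested.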

How the data were processed

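The deposited table gives 1 normalized signal per gene and library. Tools listed in the submitters' processing notes are DESeq 1.16.0, HTSeq 0.6.0, TopHat2 2.0.10 and CASAVA 1.8.2, with the builds mm10 and GRCm38. For their roles, the annotation and the strand setting the entry is: not given in the sources used here. In each library 100% of values were whole multiples (tolerance 1e-06) of the smallest one above 0, and these multiples were taken as the reads behind the deposited signal. Libraries were mapped to groups by the column names in their descriptions.

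The 15685 genes that reached a value of 10 in 2 or more libraries entered limma 3.58.1 (R 4.3.3, empirical Bayes trend) on log2(value + 1), as 1 model of 4 group means with 4 residual df. All 6 members passed that filter. Adjusted p-values are Benjamini-Hochberg over all tested genes, two-sided. The fit was checked on simulated data. edgeR 4.0.16 and DESeq2 1.42.0 on recovered reads, other scalings, pseudocounts and filters, a replicate block and leaving out each library were alternatives. Between the libraries of a group the chi-square of reads was 1.39 to 2.39 per gene, so they were kept separate. Exon lengths and coordinates come from GENCODE M21 (GRCm38), and no member shares exonic bases with another gene there.

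The members and gene lists were chosen with earlier results of these data known. Of 205 listed genes 188 were in the table. Besides the members the text names, by rule, Carm1, paralogs, p53 regulators and BCL2 counterparts. By rule it also names the called gene with the largest rise and fall of each list in each knockout contrast, and the 2 genes most like each member. Atf4, Btg2 and Cycs in elongating cells, Prmt1 and Bcl2a1b were chosen after their values were seen. So were Xiap, Birc2, Birc3, Birc5, Birc6, Dffa, Cdc25c, Chac1 and Atf5. Intervals on reads cover counting error only.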

Additional observations from a re-analysis of the deposited data

Results flagged for a closer look

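For 4 members the knockout effect differed between elongating and round spermatids by the test of the difference itself (limma, adjusted over all tested genes, of which 36.9% passed). The log2 difference of the effects, elongating minus round, was 1.64 for Bbc3, -0.82 for Mdm2, -1.41 for Ccng1 and -0.54 for Bcl2l1. Bbc3 was lower in round KO-labelled cells and not called in elongating cells, Mdm2 and Ccng1 were called lower in elongating cells only, and Bcl2l1 was called higher in round and lower in elongating cells. The round call of Bcl2l1 (0.24) was lost with total-count scaling (0.15, adjusted p = 0.15), without the 50 most abundant genes and without any 1 of the 4 round libraries (adjusted p up to 0.13). With total-count scaling the differences were 1.20, -1.29, -1.84 and -1.01. The cause was not tested.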

How the results depend on the processing

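The scaling is the main limit: total-count scaling and library totals without the 50 most abundant genes changed member results as follows, and the cause was not tested beyond the shift of all genes. In round cells Mdm2 turned to -0.081 and -0.079, Sesn2 passed at -0.48 under each, and Bcl2l1 was lost at 0.15 under each. In elongating cells Bbc3 turned to -0.42 and -0.36, Mdm4 to -0.22 and -0.16 and Ppm1d to -0.18 and -0.12. The difference between stages passed for Sesn2 at -1.05 and -0.997. Across the stages in WT, Ccng1 turned to -0.70 and -0.29 and Gadd45b to -0.15 with total-count scaling, and in KO-labelled cells Sesn2 turned to -0.84 and -0.36. By edgeR, Sesn2 (-0.39) and Gadd45b (0.77) passed in round cells, as did the stage difference of Sesn2 (-0.60), and Gadd45b also passed in round cells at a minimum value of 50 and in the fit of 4 libraries (0.75 in each). Leaving out 1 library gave, in round cells, -0.021 to 0.038 for Mdm2, -0.54 to -0.24 for Sesn2, 0.42 to 1.09 for Gadd45b and 0.23 to 0.25 for Bcl2l1, and -0.86 to -0.32 for the stage difference of Sesn2. Of the members' 564 alternative values 528 kept their direction and their side of the threshold. No count of called genes among all those tested moved by more than 1.5 times, but the share of rises among calls in elongating cells went from 49.6% to 12.4% with total-count scaling, in round cells from 60.6% to 41.8%, for the stage difference from 52.4% to 10.8%, and across the stages from 51.0% to 22.1% in WT and from 50.5% to 18.6% in KO-labelled cells. The replicate numbers share only a number (correlations of same-numbered deviations from -0.01 to 0.03), and with them as a replicate block 4932 and 8583 genes were called in the round and elongating knockout contrasts against 5018 and 8627, and 5718 for the difference against 5781; no member's call changed.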
